A study of Homo sapiens with 6 samples.

Results

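The genes described here encode a small network of proteins that break down, or protect, the matrix around a cell: the plasminogen activators PLAU and PLAT, the urokinase receptor PLAUR, the serine protease inhibitor SERPINE2, the tissue inhibitors of metalloproteases TIMP1, TIMP2 and TIMP3, and the matrix metalloproteases MMP2 and MMP14. The 9 genes were chosen by symbol for these roles, with earlier results of these data known. Each symbol matched 1 row among the 58825 genes of the deposited table. All 9 passed the filter on low counts and were among the 19200 genes tested. RNA was sequenced from PANC-1, an established line from a human pancreatic ductal carcinoma. One group of 3 libraries came from cells given 8 µM of a compound labelled CMR for 48 h, and the other group of 3 libraries from cells labelled as control. Cells of both groups were grown in DMEM with fetal bovine serum. The full name of CMR, what the control cells received and whether the libraries of a group were separate cultures are not given in the sources used here, so each p-value speaks to the spread among the sequenced libraries and not necessarily to that among cultures. PANC-1 is a single line, and the values describe that line alone.

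Urokinase (PLAU) and tissue-type plasminogen activator (PLAT) are serine proteases that cut plasminogen into plasmin, a broad protease that degrades fibrin and matrix proteins and can activate some metalloproteases. PLAUR holds urokinase at the cell surface, and serpins such as SERPINE2 trap and inactivate the activators. MMP14 is a membrane-anchored metalloprotease that, with TIMP2 as a bridge, binds and activates the secreted gelatinase MMP2, while the TIMPs also block the active enzymes. In pancreatic ductal carcinoma the urokinase system is known for its link to invasion. The data are mRNA levels, so they measure neither secreted protein nor enzyme activity.

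Library totals ran from 51147268 to 70129221 counts. Log expression correlated with r from 0.966 to 0.971 between libraries of a group and from 0.914 to 0.939 between groups, across genes, which are not independent replicates. At an adjusted p of 0.05 in edgeR (quasi-likelihood, Benjamini-Hochberg), 3928 genes were higher and 3476 lower with CMR, upper-quartile scaling changed that split to 3250 and 4324, and leaving out composition factors to 3551 and 3903. Among markers of ductal epithelium, 5 of 8 fell, and their summed FPKM (a level per length of the gene and per depth of the library) was 154 to 289 with CMR and 633 to 716 in control. The part of that fall in the results for the protease genes was not tested. Markers of fibroblasts, the usual stromal source of MMP2 and TIMPs, were near the floor. Over 6 genes they summed to 0.0626 to 0.118 FPKM with CMR and 0.229 to 0.979 in control. Of these genes 3 were tested and 1, COL3A1, was called lower. The part of this difference in the results for the protease genes was not tested either. Markers of endothelium (4 genes) summed to at most 0.0885 FPKM in any library. Those of leukocytes (4 genes) summed to 24.5 to 30.9 FPKM with CMR and 26.6 to 33.1 in control. Nearly all of this was CD68 (means 26.4 and 29.2 FPKM, not called), while PTPRC was near the floor and CD3E had no count. Acinar markers (4 genes) summed to at most 0.164 FPKM in any library, and PRSS1 among them was called higher with at most 17 counts.

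The metalloprotease gene MMP2, the urokinase gene PLAU and the inhibitor gene TIMP2 fell with CMR, 3.51-fold, 3.24-fold and 2.18-fold in the order given. The membrane protease gene MMP14, which acts with TIMP2 on MMP2, had nearly the same level in both groups. TIMP1 was 1.25-fold lower by the fitted values without passing the test, and PLAUR, PLAT, SERPINE2 and TIMP3 were not called either. Thus 3 of the 9 genes were called lower, where 18.1% of all tested genes were, and 0 of 9 were called higher, where 20.5% of all tested genes were. Unadjusted p was under 0.05 for TIMP1 and SERPINE2 among the 6 genes not called, and DESeq2 also called 0 higher. The same 3 genes fell at least 2-fold, against 8.55% of tested genes that were called lower at that size. Values of the CMR libraries lay below those of all control libraries in 4 genes (the 3 called and TIMP1), against 26.6% of tested genes. The median log2 fold change of the 9 genes was -0.40, beside -0.01 for all genes tested. As the 9 genes were chosen with earlier results of these data known, these shares describe them and are not a test. In RNA from whole cultures, fewer cells making a transcript and less of it per cell cannot be told apart.

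**Figure D1:**
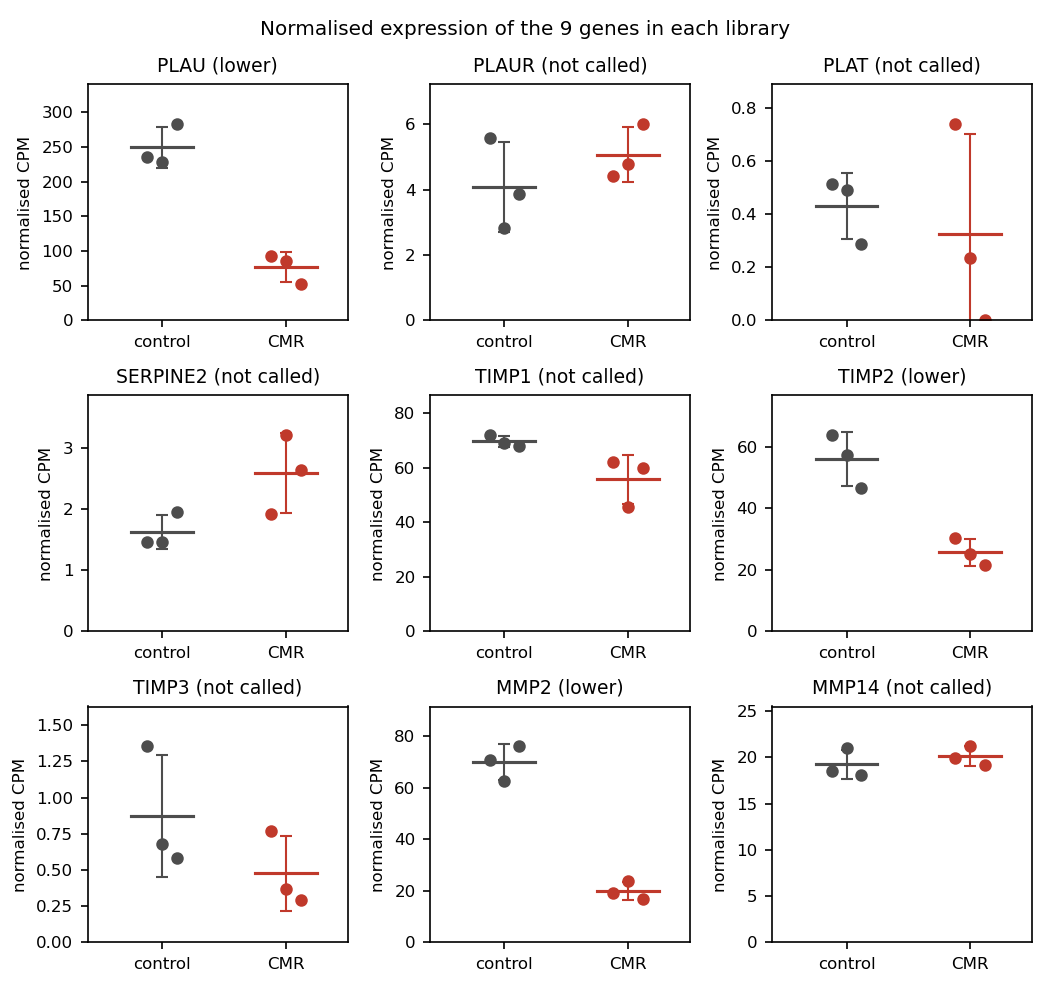
Normalised CPM of each gene by group, on linear axes that start at 0; points are single libraries, the horizontal line is the mean and the bar 1 SD of 3 libraries (cut at 0 for PLAT). The CMR points lie below all control points for PLAU, TIMP1, TIMP2 and MMP2, and the groups overlap for the other 5 genes.

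Of the 2 activators PLAU fell and PLAT was not called. PLAU (ENSG00000122861, chromosome 10, 73909177 to 73917494, plus strand) stood at 236, 229 and 284 normalised CPM (counts scaled to the effective library size) in the control libraries and at 93.1, 85.3 and 52.5 with CMR. The highest CMR library held less than the lowest control library by a wide margin. The means were 250 ± 29.8 in control and 76.9 ± 21.6 with CMR (SD, n = 3). This was a log2 fold change of -1.70 with an SE of 0.22 (adjusted p = 0.00109 by edgeR). This SE, like each ± beside a log2 fold change, is the absolute log2 fold change divided by the square root of the edgeR F statistic. PLAU kept its call under each of the 16 alternative settings, with log2 fold changes from -1.86 to -1.49. Its span overlaps C10orf55 on the other strand, which had a mean of 182 counts, 1.87% of the PLAU mean, and a log2 fold change of -2.70 (adjusted p = 0.000667 by edgeR). No source used here says whether strand was kept, so reads of this pair cannot be told apart.

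PLAUR, the receptor that concentrates urokinase on the cell surface, was not called. PLAUR (ENSG00000011422, chromosome 19, 43646095 to 43670169, minus strand) had 5.56, 2.81 and 3.86 normalised CPM in control and 4.42, 4.78 and 6.01 with CMR. The range of the control libraries held 2 of the 3 CMR values. The fitted log2 fold change was 0.31 ± 0.28 (adjusted p = 0.424 by edgeR), and no setting called it. On the deposited FPKM scale, the ratio of PLAU to PLAUR in a library was 64.9, 126 and 113 in control and 32.4, 27.2 and 13.3 with CMR. All 3 CMR ratios were under the lowest control ratio (exact permutation test of the log ratio, two-sided p = 0.1, the smallest that 3 against 3 libraries can give). The size of this ratio depends on the gene length used: the deposited FPKM imply 5336 to 5413 bases for PLAUR, whose longest coding transcript in GENCODE 29 has 1610. With counts divided by the longest coding transcripts, an alternative chosen after the data were seen, the ratios were 25.7, 49.3 and 44.5 in control and 12.8, 10.8 and 5.29 with CMR, and the groups again did not overlap.

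PLAT, the activator best known for dissolving clots, was near the detection limit. PLAT (ENSG00000104368, chromosome 8, 42175233 to 42207724, minus strand) had 27, 26 and 19 counts in the control libraries and 49, 16 and 0 with CMR. The count of 0 in CMR replicate 3 allows up to 0.0458 CPM, counting 3 as the limit for counting error only. The highest and the lowest value of all 6 libraries were both in the CMR group. The fitted log2 fold change was -0.40 ± 1.15 (adjusted p = 0.812 by edgeR), and it was 0.18 without CMR replicate 3 (adjusted p = 0.872), so no difference was detectable in these libraries.

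SERPINE2, also called protease nexin-1, is an inhibitor of urokinase, tissue-type activator and thrombin. SERPINE2 (ENSG00000135919, chromosome 2, 223975045 to 224039290, minus strand) had 1.47, 1.47 and 1.95 normalised CPM in control and 1.92, 3.22 and 2.64 with CMR. CMR replicate 1 lay just under control replicate 3, and the other two CMR libraries were above all controls. On the log2 scale the fold change was 0.67 ± 0.27 (adjusted p = 0.0975 by edgeR). Without CMR replicate 1 it was 0.84 with an adjusted p of 0.0467, the single setting of 13 that called it.

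MMP2, the secreted gelatinase that degrades type IV collagen, fell by about as much as PLAU. MMP2 (ENSG00000087245, chromosome 16, 55389700 to 55506239, plus strand) stood at 70.9, 62.6 and 76.3 normalised CPM in control and at 19.1, 23.8 and 17.0 with CMR. All CMR libraries were far below all control libraries. The means were 69.9 ± 6.88 and 19.9 ± 3.50 (SD, n = 3). The log2 fold change was -1.81 with an SE of 0.16 (adjusted p = 0.000253 by edgeR), and 3.94% of tested genes had a lower one. It kept its call in all 16 settings, from -1.95 to -1.64. Its log2 fold change was lower than that of PLAU by less than their SEs, and the order turned without CMR replicate 1 (-1.78 for MMP2 and -1.86 for PLAU) and with limma on log2(FPKM + 1) (-1.64 and -1.76).

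MMP14, also called MT1-MMP, cleaves collagen at the cell surface and activates the MMP2 proenzyme. MMP14 (ENSG00000157227, chromosome 14, 22836560 to 22849027, plus strand) had 18.6, 21.0 and 18.1 CPM in control and 20.0, 21.2 and 19.2 with CMR. The 6 libraries interleaved within a narrow band. The log2 fold change was 0.06 ± 0.12 (adjusted p = 0.706 by edgeR), and its sign turned in 4 settings (upper-quartile factors, no composition factor and both fits on log2 FPKM), the lowest being -0.07 with upper-quartile factors. Per length, MMP2 exceeded MMP14 by 3.62, 2.82 and 3.99 times in the control libraries, while the ratio was 0.904, 1.06 and 0.838 with CMR. The ratios of the groups did not overlap (exact permutation test, two-sided p = 0.1, the smallest possible here).

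**Figure D2:**
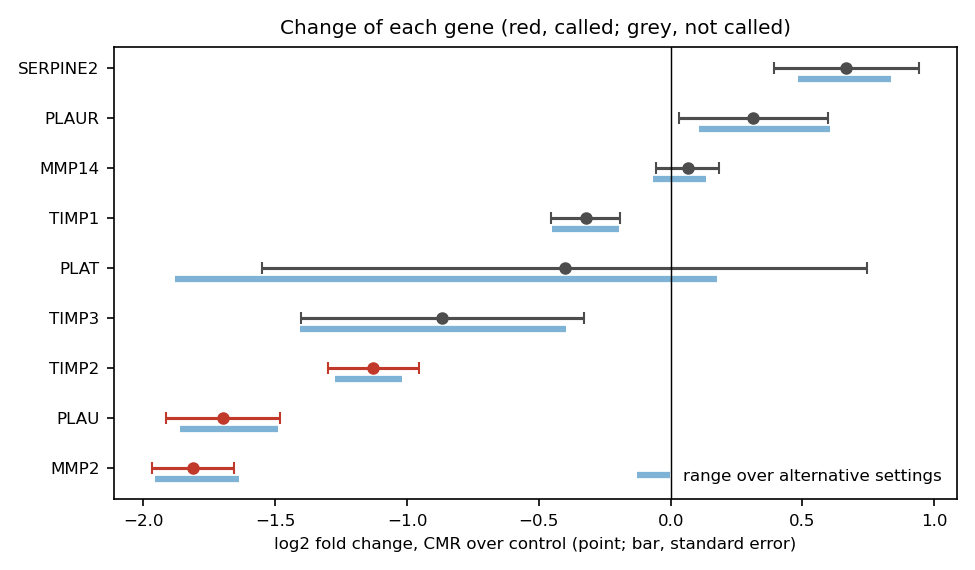
Log2 fold change of each gene, CMR over control, with a standard error derived from the F statistic of the edgeR test. The blue bar under each point is the range over 13 or 16 alternative settings. The ranges of PLAT (-1.88 to 0.18, the widest) and MMP14 (-0.07 to 0.14) cross 0, and those of the other 7 genes do not, though only PLAU, TIMP2 and MMP2 were called in every setting.

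The TIMPs block metalloproteases by binding the active site, and TIMP1 was the most abundant of them in every library. TIMP1 (ENSG00000102265, chromosome X, 47582408 to 47586789, plus strand) had 72.1, 69.0 and 68.1 normalised CPM in control and 61.9, 45.5 and 59.8 with CMR. All 3 CMR libraries were lower than the controls, with CMR replicate 2 the lowest. The means were 69.7 ± 2.07 and 55.8 ± 8.95 (SD, n = 3). The log2 fold change was -0.32 with an SE of 0.13 (adjusted p = 0.0948 by edgeR). Upper-quartile factors, which shift the median log2 fold change of all genes by -0.13, gave -0.45 with an adjusted p of 0.0332, and limma on log2(FPKM + 1) gave -0.40 with 0.0335. TIMP1 was thus called or not depending on the scaling. The span holds part of SYN1 on the other strand, whose mean was 1.71% of the TIMP1 count.

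TIMP2, an inhibitor that also carries the MMP2 proenzyme to MMP14, fell. TIMP2 (ENSG00000035862, chromosome 17, 78852977 to 78922401, minus strand) had 63.9, 57.5 and 46.7 normalised CPM in control and 30.4, 25.04 and 21.4 with CMR. The lowest control library was above the highest CMR library by a clear margin. The means were 56.0 ± 8.66 and 25.6 ± 4.52 (SD, n = 3). The log2 fold change was -1.13 with an SE of 0.17 (adjusted p = 0.00230 by edgeR). The call held in all 16 settings, from -1.27 to -1.02.

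TIMP3, which binds to the matrix and also inhibits ADAM17, was scarce. TIMP3 (ENSG00000100234, chromosome 22, 32801701 to 32863043, plus strand) had 71, 36 and 38 counts in the control libraries and 51, 25 and 19 with CMR. CMR replicate 1 lay above 2 of the 3 controls on the CPM scale. The log2 fold change was -0.87 ± 0.54 (adjusted p = 0.249 by edgeR), and without control replicate 1, the highest library, it was -0.40. A fall of TIMP3 was not detectable in these libraries. TIMP4, the remaining family member, had 15 counts in CMR replicate 3 and 0 in the other 5 libraries, and it was not tested. SYN2 lies on the other strand of its span with a mean of 28.8 counts, 1153% of the TIMP4 mean.

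TIMP1 made up a larger part of the family with CMR. Its share of the summed TIMP FPKM was 81.1%, 82.2% and 84.8% in control and 88.5%, 87.4% and 91.5% with CMR. TIMP2 made up 18.4%, 17.6% and 14.9% in control and 11.2%, 12.4% and 8.41% with CMR. Neither share overlapped between the groups. TIMP3 was under 0.48% in every library, so these shares and the ratio given next describe the same difference. The ratio of TIMP1 to TIMP2 was 4.39, 4.68 and 5.68 in control and 7.93, 7.08 and 10.9 with CMR (exact permutation test, two-sided p = 0.1, the smallest possible here). Summed over the 3 genes, TIMP expression was 50.3 ± 2.64 FPKM in control and 35.3 ± 5.61 with CMR (SD, n = 3).

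**Figure D3:**
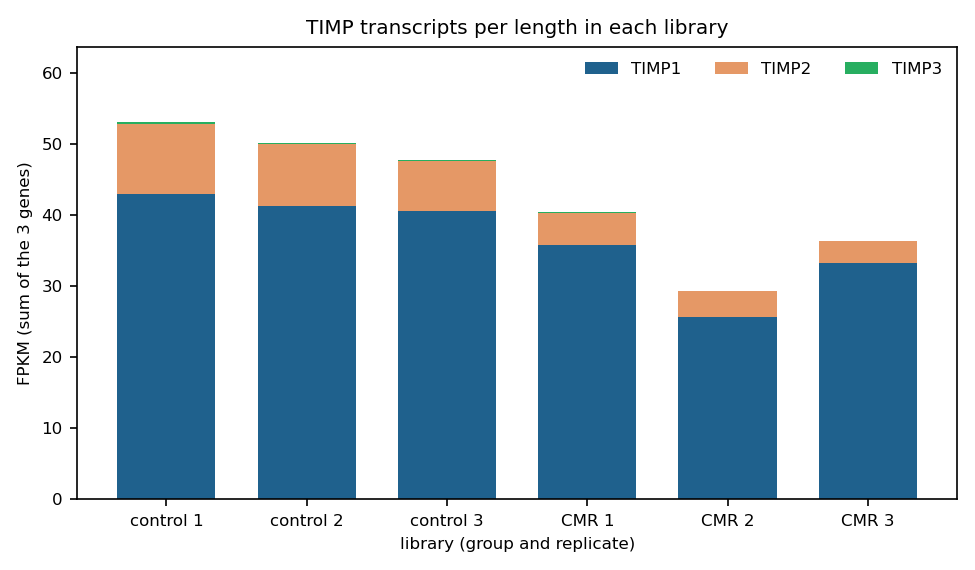
Stacked FPKM of TIMP1, TIMP2 and TIMP3 in each of the 6 libraries, on an axis that starts at 0. The TIMP2 segment shrinks from 7.13 to 9.78 FPKM in control to 3.06 to 4.50 with CMR, and TIMP3 is barely visible.

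TIMP2 and MMP2 both fell, MMP2 by the larger fold. The ratio of TIMP2 to MMP2 FPKM was 0.753, 0.766 and 0.512 in control and 1.33, 0.879 and 1.06 with CMR. The ratio of TIMP2 to MMP14 was 2.72, 2.16 and 2.04 in control and 1.21, 0.934 and 0.885 with CMR, lower where the first was higher. Both sets of ratios were separate between the groups (exact permutation test, two-sided p = 0.1 for each, the smallest possible here). In control libraries the order of the trio was therefore MMP2, TIMP2, MMP14, while with CMR their means were 3.46 ± 0.612, 3.73 ± 0.729 and 3.69 ± 0.212 FPKM (SD, n = 3) and did not differ beyond their spread.

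On the level per length, control libraries ranked PLAU first at 73.0 ± 8.54 FPKM, then TIMP1 at 41.6 ± 1.27, MMP2 at 12.8 ± 1.23, TIMP2 at 8.58 ± 1.34, MMP14 at 3.72 ± 0.310 and PLAUR at 0.778 ± 0.269 (SD, n = 3). TIMP3 (0.163 ± 0.0800), SERPINE2 (0.155 ± 0.0254) and PLAT (0.0532 ± 0.0139) closed the order, and TIMP3 and SERPINE2 did not differ beyond their spread. With CMR, TIMP1 stood first at 31.5 ± 5.27 and PLAU next at 21.4 ± 6.29, with ranges that just overlapped. Within each CMR library TIMP1 exceeded PLAU, by 1.36, 1.09 and 2.33 times, whereas in the controls the ratio was 0.621, 0.615 and 0.490. PLAU held 49.4% to 55.6% of the summed FPKM of the 9 genes in control and 24.5% to 38.0% with CMR. The deposited FPKM imply a gene length of 10730 to 10884 bases for SERPINE2, whose longest coding transcript in GENCODE 29 has 2569. With counts divided by the longest coding transcript, an alternative chosen after the data were seen, SERPINE2 reached 0.651 CPM per kilobase in control and moved above TIMP3 (0.194), and the other ranks of the control order did not change.

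Counts of the 10 gene lists below are to be read beside all tested genes, of which 20.5% were called higher and 18.1% lower. The lists were chosen with earlier results of these data known, so their counts describe them and are not a test. Among other serpins, 12 of 33 protein-coding genes were tested, of which 3 rose, 2 fell and 7 were not called (median log2 fold change 0.10). SERPINH1, the collagen chaperone HSP47, rose 1.60-fold and SERPINB8, an intracellular furin inhibitor, rose 4.56-fold (log2 fold change 2.19 ± 0.49, adjusted p = 0.0116 by edgeR). The control libraries of SERPINB8 spread widely, at 70, 146 and 390 counts. Its means were 0.489 ± 0.347 FPKM in control and 2.13 ± 0.322 with CMR (SD, n = 3). Of the other 21 matrix metalloprotease genes 13 were tested, with 1 higher, 2 lower and 10 not called (median -0.30). MMP16, a membrane-type metalloprotease related to MMP14, fell from 2.31 ± 0.265 to 1.15 ± 0.103 FPKM (SD, n = 3; log2 fold change -0.92 ± 0.13, adjusted p = 0.00184 by edgeR). MMP17, another membrane-anchored member, rose 1.64-fold, a call that 10 of 16 settings lost (adjusted p up to 0.117). The collagenase gene MMP1, named here after its values were seen, had the highest FPKM of any matrix metalloprotease gene, MMP2 included. It had 38.3, 29.7 and 48.8 FPKM in control and 58.6, 42.0 and 57.7 with CMR, and these overlapped (log2 fold change 0.51 ± 0.21, adjusted p = 0.0892 by edgeR).

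**Figure D4:**
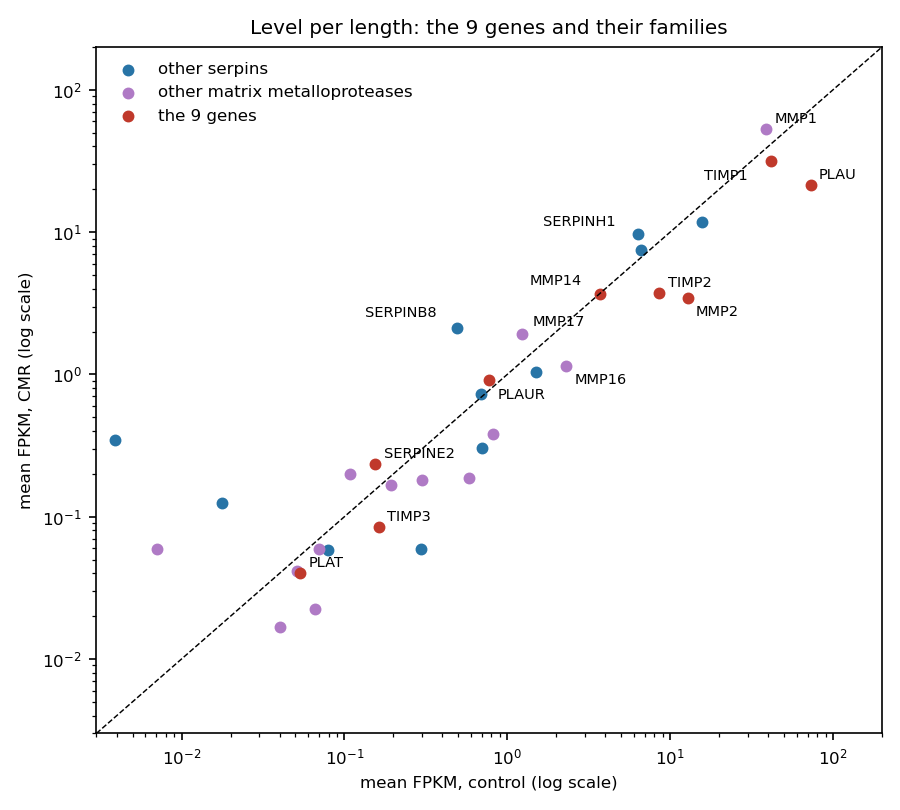
Mean FPKM in control (x axis) and with CMR (y axis), both on log scales, for the 9 genes and for other tested serpins (1 is not shown) and matrix metalloproteases; the dashed line marks equal levels. PLAU, MMP2 and TIMP2 lie below the line, and MMP14 (3.72 and 3.69 FPKM) lies on it.

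Of 21 other genes of the plasminogen system 17 were tested, of which 9 fell, 4 rose and 4 were not called (median log2 fold change -0.48). S100A10, which with ANXA2 forms a plasminogen receptor on the cell surface, fell from 356 ± 24.2 to 157 ± 35.3 FPKM (SD, n = 3; log2 fold change -1.11 ± 0.16, adjusted p = 0.00169 by edgeR). ITGB5, the beta chain of a vitronectin-binding integrin, fell 2.07-fold. VLDLR, an endocytic receptor that clears protease and serpin complexes, was 14.1-fold higher. It was scarce in control, at 0.103 ± 0.0233 FPKM (45, 62 and 90 counts), against 1.39 ± 0.305 FPKM with CMR (SD, n = 3). Plasminogen itself, PLG, had 0, 5 and 29 counts in the control libraries and 0 in the CMR libraries and was not tested. Across the settings 7 to 9 of these genes were lower and 2 to 5 higher.

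The list of metalloprotease inhibitors and activators had 10 of 14 genes tested, with 3 lower and 0 higher (median -0.38). FURIN, a proprotein convertase that activates the MMP14 proenzyme inside the cell, fell from 12.4 ± 0.810 to 5.31 ± 0.744 FPKM (SD, n = 3; log2 fold change -1.14 ± 0.12, adjusted p = 0.000533 by edgeR). RECK, a membrane-anchored inhibitor of metalloproteases, was 1.61-fold lower and CLDN1, a tight junction protein, 1.31-fold lower. RECK lost its call in 3 settings (adjusted p up to 0.0734) and CLDN1 in 5 (up to 0.0976), 1 of them the fit with the replicate number as a block (0.0529). Of 20 ADAM genes 10 were tested, with 1 higher and 5 lower. The one that rose was ADAM17, the sheddase that TIMP3 inhibits, at 5.12 ± 0.219 FPKM in control and 14.1 ± 1.78 with CMR (SD, n = 3; log2 fold change 1.55 ± 0.12, adjusted p = 0.000183 by edgeR). IAH1 lies on the other strand of part of its span, with 28.5% of its mean count. ADAM15 was 1.72-fold lower, a call lost without CMR replicate 2 and without control replicate 1 (adjusted p up to 0.0546). ADAM9, a membrane sheddase, was 1.21-fold lower, and 5 settings lost that call (adjusted p up to 0.113). Of 19 ADAMTS genes, secreted proteases of proteoglycans and other matrix proteins, 10 were tested and 3 rose while 2 fell. ADAMTS1 was 4.58-fold and ADAMTS16 5.19-fold higher, and ADAMTS15 was 2.85-fold lower.

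Transcripts of several proteins that these enzymes cut were lower. Of 18 matrix and surface substrates 17 were tested, 11 fell and 0 rose (median -0.93), and 8 to 12 fell across the settings. COL1A1, a type I collagen chain, was 4.72-fold lower, the proteoglycan gene SDC1 2.46-fold and the hyaluronan receptor gene CD44, which is shed by MMP14, 2.41-fold lower. Among cathepsins and cystatins, 2 of 15 tested genes rose and 3 fell. CTSL, a lysosomal cysteine protease, was 1.82-fold higher, and CTSH and CTSC were 2.49-fold and 2.05-fold lower. Of 9 tested surface serine proteases and Kunitz inhibitors 2 fell and 0 rose, HTRA1 by 2.31-fold and TMPRSS2 by 2.15-fold, the groups overlapped for TMPRSS2, and 6 of 16 settings lost it (adjusted p up to 0.153).

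**Figure D5:**
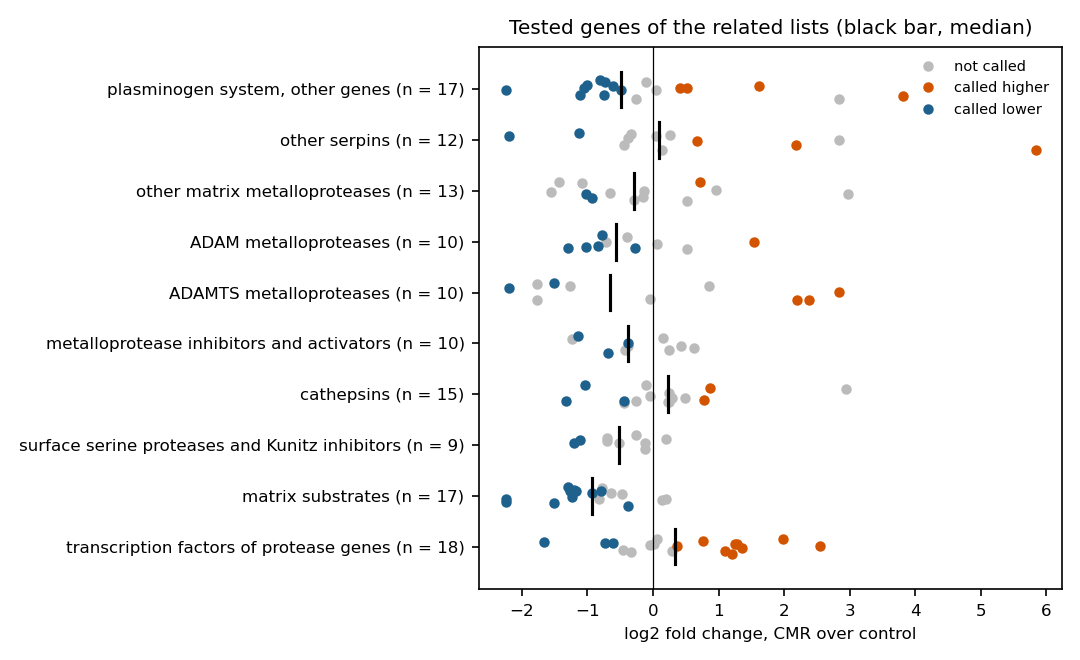
Log2 fold change of every tested gene in 10 related lists, coloured by call, with the median of each list as a black bar; vertical jitter carries no value. The matrix substrates hold 11 genes called lower and 0 higher, and the transcription factors hold 9 called higher and 3 lower.

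Transcription factors known to act on protease genes, chiefly of the AP-1 and ETS families, moved in both directions. All 18 of the list were tested, 9 rose and 3 fell (median 0.33), and 7 to 9 rose and 3 fell across the settings. FOSB, an AP-1 subunit whose span overlaps ERCC1 on the other strand with 643% of its mean count, was 5.82-fold higher and EGR1 3.97-fold higher. ETS2, an ETS factor, fell from 104 ± 4.16 to 31.1 ± 5.41 FPKM (SD, n = 3; log2 fold change -1.67 ± 0.12, adjusted p = 0.000152 by edgeR).

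Because AP-1 and GC-box sites are the elements usually described in these genes, 250 bases before each RefSeq start (GRCh38.p14) were searched on both strands for 6 motifs. They were AP-1 (TGANTCA), CRE (TGACGTCA), the GC box (GGGCGG), the TATA box (TATAAA), a C/EBP-ATF composite (TGATGNAA) and E2F (TTTCGCGC), where N is any base; the AP-1 letters are not contained in those of CRE. Matching by symbol gave 8 windows for 6 of the 9 genes; MMP2, TIMP2 and PLAT were not matched. A match says only that the letters are there. Exons in GENCODE 29 of the 9 genes, C10orf55 or SYN1 covered all 250 bases of both PLAU windows and of the PLAUR window. They covered 0 and 164 bases of the SERPINE2 windows, 123 of the TIMP1 window, 28 of MMP14 and 4 of TIMP3. The windows are thus not all sequence outside transcripts. Among 34943 windows of the same length, 42.5% held a GC box, 6.59% AP-1, 10.8% the TATA box, 3.15% the C/EBP-ATF composite, 1.63% CRE and 0.429% E2F. The stretches below are 30 bases around the match nearest the start, in the window with most matches, printed 5′ to 3′ on the gene's strand with matched letters in capitals. They show the 2 kinds of match found.

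PLAU: gGGGCGGcgccgGGGCGGgccctgatatag
TIMP1: ccgctgccacccCCGCCCctagcgtggaca
TIMP3: tatatcactcggCCGCCCaggcagcggcgc
MMP14: aggagggcactgGGGCGGggacggaggaga
SERPINE2: ggcaaggcggggCCGCCCcggggtggcgtc
PLAUR: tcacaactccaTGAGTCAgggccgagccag

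The PLAU stretch lies at chr10:73911080-73911109, plus strand, from 52 to 23 bases before the start, and holds 2 of the 3 GC boxes of that window. Those of TIMP1 (chrX:47582379-47582408), TIMP3 (chr22:32801675-32801704) and MMP14 (chr14:22836507-22836536) are on the plus strand, and that of SERPINE2 (chr2:224038806-224038835) is on the minus strand. The PLAUR stretch, at chr19:43670337-43670366 on the minus strand, holds the single AP-1 match of the 8 windows. PLAU, which fell, and MMP14, TIMP1, TIMP3 and SERPINE2, which were not called, each held a GC box, in common with 42.5% of all windows. No CRE, TATA, C/EBP-ATF or E2F letters were found in these windows.

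By the distance between log2 CPM values centred on each gene's mean over the 6 libraries, the closest pair among the 9 genes was PLAU and MMP2 (0.50). Of 6473 other genes averaging 5 FPKM or more, those nearest to MMP2 were RBL1, a pocket protein of the retinoblastoma family (0.19), CDC7, a replication kinase (0.23), and ACTG1, a cytoplasmic actin (0.25), against a median distance of 2.39. The distance is a description of 6 libraries in 2 groups, so it mostly follows the size of the group difference. No gene among the 9 was called higher, so no such neighbours are given for a rise.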

How the data were processed

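The count values deposited by the authors are whole numbers per gene with no normalization, per the file headers and values. The FPKM columns were deposited already divided by length and depth, per the file headers, and hold 0.0001 where a gene had no count. The submitters' processing notes list StringTie 1.3.0, HISAT2 2.0, Bowtie 0.12.2 and, as build, mm8 of the mouse, but the gene identifiers are human. Of 58552 identifiers found in GENCODE 29 (GRCh38) 81.2% have the same span and strand, so coordinates were read as GRCh38. Among the 9 genes only PLAT and TIMP3 have the same span. The largest difference was at the end of TIMP2, -2986 bases against GENCODE 29, with -452 for MMP2 and -378 for PLAUR. The labels' protocol also names an adipose source, which does not match PANC-1; adipocyte markers summed to at most 0.138 FPKM.

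Counts of all genes were fitted with edgeR 4.0.16 (R 4.3.3; TMM scaling, filterByExpr with minimum count 10 and total 15, quasi-likelihood test, Benjamini-Hochberg over 19200 genes, called at 0.05). The same procedure was then run on simulated counts drawn from the means, dispersions and library sizes of these data, with results not reported here. Normalised CPM used the same factors. Ratios used FPKM within a library and exact permutation tests (scipy 1.17.1). Alternatives were median-of-ratios, upper-quartile and no composition factors, filters, DESeq2 1.42.0, limma 3.58.1 (voom, and on log2 FPKM with pseudocounts of 1 and 0.1), a replicate block and leaving out each library.

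The 9 genes and the 10 gene lists were chosen with earlier results of these data known. The rule named all 9, up to 3 called genes per list with the largest change and at least 1 FPKM, and TIMP4 and PLG; SERPINF2 and VTN are among the genes that stand in 2 lists. Some items named by the rule are not reported here. Overlapping genes are given for genes outside the 9 at 10% or more of the mean count. The table had 0 columns of no sample. Deviations from the group mean correlated at r from 0.03 to 0.05 between same-numbered libraries and from -0.03 to -0.01 between the others. Whether replicate numbers pair the libraries is thus open, and the main fit left the number out. Figures were drawn with matplotlib 3.10.9. RefSeq windows cover 250 bases; 30 are printed.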

Additional observations from a re-analysis of the deposited data

How the results depend on the processing

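PLAU, TIMP2 and MMP2 kept their direction and call in each of 16 alternatives, so the count of genes called lower was 3 or, where TIMP1 was added (upper-quartile factors and both fits on log2 FPKM), 4. The count called higher was 0 in each alternative except without CMR replicate 1, where SERPINE2 made it 1, so leaving out 1 library at a time gave 0 to 1. With the replicate number as a block, 6737 genes were called in all and 3 of the 9 were lower, against 7404 and 3. Each library correlated best with its own number, though weakly, so whether the numbers pair the libraries is open. The sign of MMP14, which was not called, turned with upper-quartile factors (-0.065), with no composition factor (-0.0074) and on log2(FPKM + 1) (-0.0089) and log2(FPKM + 0.1) (-0.011). PLAT, not called, ranged from -1.86 to 0.18 when 1 library at a time was left out, the upper value being that without CMR replicate 3, its library with 0 counts. The cause of the changes with scaling was not tested. The filter at a mean of 1 FPKM left out PLAUR, PLAT, SERPINE2 and TIMP3, so these have 13 alternatives. PLAT and TIMP3 had at most 71 counts in a library, and the parts of depth and of spread between libraries in their errors were not tested. Of the 6 ratios between members that were recomputed with the longest coding transcript as the length, PLAU to PLAUR alone moved by over 1.5 times. Ratios to SERPINE2 were not among them, and its implied length (10730 to 10884 bases) is far above that of its longest coding transcript (2569).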
